A study of Mus musculus with 10 samples.

Results

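Besides the β-cells that make insulin, islets of Langerhans hold several kinds of endocrine cells that each release another peptide hormone. This report describes the genes of these hormones, *Gcg* (glucagon), *Sst* (somatostatin), *Ppy* (pancreatic polypeptide), *Pyy* (peptide YY) and *Ghrl* (ghrelin), and of the homeobox transcription factors *Irx1*, *Irx2* and *Hhex*. They were chosen by name, as 8 of the 35214 genes of the gene table, and they account for 31 of the 167895 events of the splicing table. RNAseq was done on islets of 5 male NZO mice (strain NZO/HiBomDife), which are prone to diabetes, and of 5 male B6-ob/ob mice (C57BL/6J.V-Lepob/ob), which are obese through a mutation of the leptin gene but stay free of diabetes. In both strains the diet lacked carbohydrates at first, and islets were taken 2 days after carbohydrates had been added at 18 weeks of age. The strains differ in their whole genetic background as well as in the leptin mutation, so that these cannot be told apart here. The sample labels name pancreas as the source and the study's methods isolated islets.

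The files used here hold no value per mouse. For each gene the authors' mean normalized count over all 10 libraries was used, and for each splicing event its inclusion level in each strain with the 5 mice pooled, called PSI (percent spliced in) and given from 0 (never) to 1 (always included). Hence no value below has an SD, no test between the strains was possible, the reads behind each PSI are unknown, and levels of RNA are given for both strains together. In such bulk samples, fewer cells of a type and less RNA per cell cannot be told apart. The tissue named by the study's methods, isolated islets, was checked by markers of islet cells and of other cells of the pancreas. The 6 β-cell markers took 28.7% of all normalized counts and the 8 markers of acinar cells, the enzyme-producing cells of the pancreas, 0.00306%. The markers of α-, δ-, PP- and ε-cells, which include the genes under study other than *Pyy*, were all present, as were those of endothelial cells with 0.0454% of all counts, ductal cells with 0.0352%, nearly all from *Krt7* with a mean normalized count of 12714 beside 109 for *Krt19*, 30.1 for *Sox9* and 13.3 for *Cftr*, stellate cells and fibroblasts with 0.0104%, leukocytes with 0.00169% and Schwann cells with 0.00108%. As these are means over all libraries, whether they differ between the strains was not analysed here.

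In each islet cell type, a hormone is made as a longer precursor, cut by proteases in secretory granules and released by exocytosis. Glucagon from α-cells raises blood glucose, while somatostatin from δ-cells restrains the release of both insulin and glucagon. Pancreatic polypeptide and peptide YY are related peptides of the neuropeptide Y family, and ghrelin, best known as a hormone of the stomach, is made in the islet by the rare ε-cells. In the mouse, *Irx1* and *Irx2* are transcription factor genes enriched in α-cells, and *Hhex* is needed for the development of δ-cells.

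The genes *Gcg*, *Ppy*, *Pyy* and *Sst* were among the most abundant RNAs of the islets, while *Ghrl* and the regulators were between the 45.2th and 58.2th percentile of all ranked genes. Among the 15151 genes that reached a count of 10, the percentile was 18.8 for *Ghrl*, 20.7 for *Hhex*, 31.7 for *Irx1* and 38.0 for *Irx2*. The authors' mean normalized count was 240204 for *Gcg*, 68470 for *Ppy*, 34948 for *Pyy* and 24410 for *Sst*. Divided by the length of the longest annotated transcript, so that genes can be compared, these are 220775 per kilobase for *Gcg*, 136941 for *Ppy*, 62969 for *Pyy* and 33855 for *Sst*. Among the 22493 genes with a count above 0 and a known length, *Gcg* was at rank 5, *Ppy* at 7, *Pyy* at 16 and *Sst* at 25 in level per kilobase. The top 1% of genes began at 5909 per kilobase, and all 4 exceeded it. Since only a mean over all libraries was given, whether neighbours in this order differ beyond the spread between mice cannot be said.

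Among these 4 hormone genes, *Gcg* had the largest part. Of the summed normalized counts of *Gcg*, *Ppy*, *Pyy* and *Sst*, *Gcg* took 65.3%, *Ppy* 18.6%, *Pyy* 9.50% and *Sst* 6.63%. Per kilobase, the share of *Gcg* was 48.6% and that of *Ppy* 30.1%, as the *Gcg* transcript of 1088 nt is longer than that of *Ppy* with 500 nt. Together the 4 genes made up 1.01% of all normalized counts, beside 25.3% for the insulin genes *Ins1* and *Ins2*. Per kilobase, *Ins2* had 32.9 times the level of *Gcg*, *Ins1* 11.01 times and the amylin gene *Iapp* 6.00 times.

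The gene of ghrelin was far below the other hormones. Its mean normalized count was 22.2, or 24.9 per kilobase, at the 45.2th percentile of the ranked genes. *Gcg* was 8863 times and *Sst* 1359 times as high per kilobase. The gene of its acylating enzyme, *Mboat4*, named here after its value was seen, had a mean normalized count of 6.22.

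Among the regulators, *Irx2* had the highest level with a mean normalized count of 267, followed by *Irx1* with 168 and *Hhex* with 115. Per kilobase this is 102 for *Irx2*, 70.8 for *Irx1* and 29.4 for *Hhex*, compared with a median of 45.3 over the ranked genes. The order of *Irx2* above *Irx1* was thus the same on both scales. The value of *Hhex* depends on the transcript chosen, because its longest transcript, of 3908 nt, retains an intron. With its coding transcript of 1802 nt it is 63.8 per kilobase, and its percentile moves from 46.5 to 52.3. *Gcg* RNA was 2174 times as abundant per kilobase as that of *Irx2*.

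**Figure D1:**
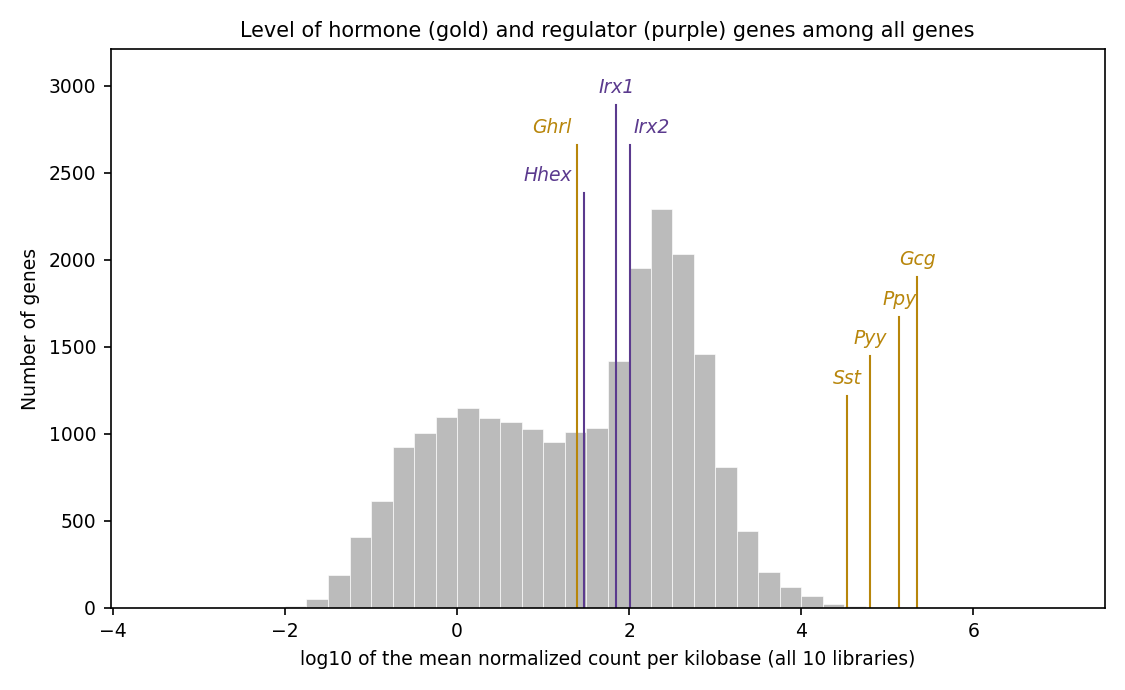
Histogram of the level of all 22493 ranked genes, as log10 of the authors' mean normalized count per kilobase over all 10 libraries (x axis), with the number of genes per bin (y axis) and a line for each of the 8 genes (gold for hormones, purple for regulators; line heights carry no value). *Gcg*, *Ppy*, *Pyy* and *Sst* stand at the upper end between 33855 and 220775 per kilobase, whereas *Ghrl*, *Hhex*, *Irx1* and *Irx2* lie between 24.9 and 102.

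*Ppy* and *Pyy* lie next to each other on chromosome 11, with 5356 bases between them, and *Irx1* and *Irx2* on chromosome 13, with 665096 bases between them. In mm10, *Ppy* spans chr11:102099930-102101319 and *Pyy* chr11:102106676-102107832, both on the minus strand. *Gcg* spans chr2:62474530-62483650, *Sst* chr16:23889573-23890958 and *Ghrl* chr6:113716119-113719880, also on the minus strand. Of the regulators, *Irx1* spans chr13:71957921-71963723 on the minus strand, *Irx2* chr13:72628820-72634198 and *Hhex* chr19:37434810-37440731 on the plus strand. The annotation (GENCODE M21) gives *Sst* a single transcript and the others 2 to 7.

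The splicing table lists events for 7 of the 8 genes and none for *Sst*. These are 15 cassette exons, 8 tandem polyadenylation sites, 4 tandem transcription starts, 2 alternative 5' splice sites, 1 alternative first exon and 1 retained intron. As a limit, an absolute ∆PSI over 0.1 was used, where ∆PSI was computed by subtracting the value of B6-ob/ob from that of NZO islets. Of the 31 events, 2 passed it, both in *Hhex*, where they describe the same choice between ends of the transcript. Over all events of the table, 8.73% passed, so that the count of the hormone and regulator genes is near this background. The median absolute ∆PSI was 0.00741 over the 31 events and 0.00911 over all events. By gene, 1 of 7 had an event past the limit, compared with 43.96% of the 13706 genes with events. These shares are not matched for the number of events per gene, and a gene with more events can pass more easily. The 7 genes hold 31 events and the 13706 genes 167895.

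**Figure D2:**
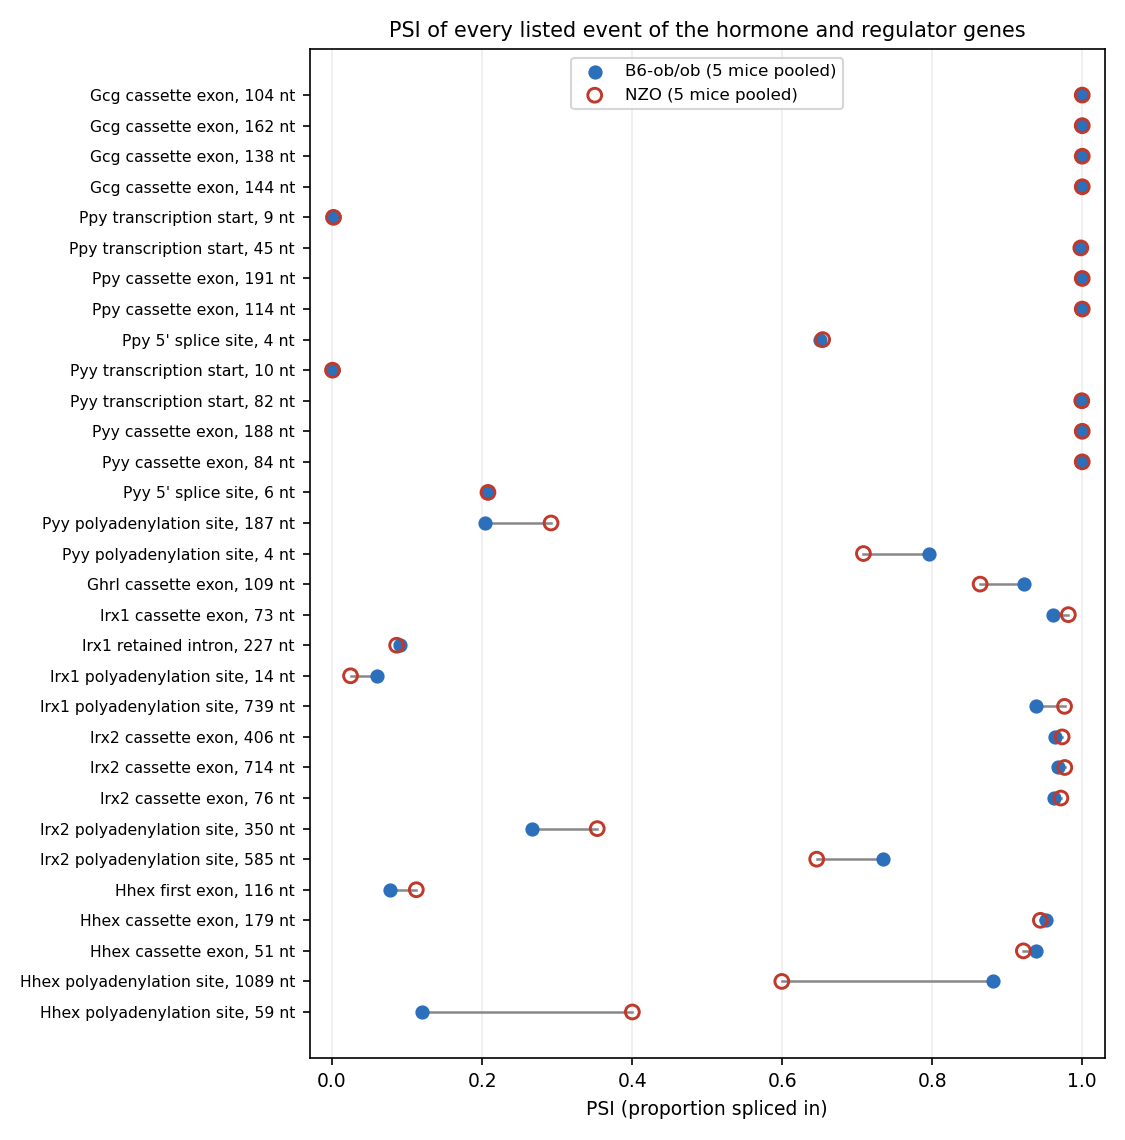
PSI (x axis, 0 to 1) of the 31 events of *Gcg*, *Ppy*, *Pyy*, *Ghrl*, *Irx1*, *Irx2* and *Hhex*, each named with its type and the length of its stretch, in NZO (open red circles) and B6-ob/ob islets (filled blue circles), 1 value per strain with 5 mice pooled and therefore no error bars. The circles coincide for *Gcg* and for most events of *Ppy* and *Pyy*, and lie farthest apart for the polyadenylation sites of *Hhex*, with 0.40 against 0.12 for the outer one.

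The cassette exons of *Gcg*, *Ppy* and *Pyy* were included in nearly all transcripts of both strains. For the 4 cassette exons of *Gcg*, 1 minus PSI was 1e-05 in NZO islets and at most 2e-05 in B6-ob/ob islets. The exons of 162 nt, 138 nt and 144 nt lie within the coding sequence of proglucagon, the precursor of glucagon and of the glucagon-like peptides, and the one of 104 nt overlaps its start. *Ppy* had the same values at its exons of 191 nt and 114 nt. In *Pyy*, 1 minus PSI was 3e-05 in NZO islets and 5e-05 in B6-ob/ob islets for the exon of 188 nt, and 4e-05 and 6e-05 for that of 84 nt. No skipping above these values is listed for any of the 8 exons of *Gcg*, *Ppy* and *Pyy*, and the strains differed by at most 2e-05.

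Both *Ppy* and *Pyy* have annotated starts a few bases apart, and the inner one was used almost throughout in both strains. The RefSeq promoters (GRCm38.p6) are shown from 60 bases before to 30 bases after the outer start, since the PSI bears on these bases. Capitals mark a match to TATAA and, downstream of it, the stretch present only when transcription begins at the outer start.
*Ppy*, chr11:102101290-102101379, minus strand: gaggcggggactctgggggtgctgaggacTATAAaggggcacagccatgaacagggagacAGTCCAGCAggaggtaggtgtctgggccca
*Pyy*, chr11:102107803-102107892, minus strand: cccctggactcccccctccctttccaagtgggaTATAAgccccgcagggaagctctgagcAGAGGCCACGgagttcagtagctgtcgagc

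The outer start of *Ppy*, with 9 more bases, had a PSI of 0.001906 in NZO islets and 0.002503 in B6-ob/ob islets. That of *Pyy*, with 10 more bases, had 0.000643 and 0.000822. The inner starts had the remainder, between 0.998 and 0.999. Whether reads cover such short stretches at the first bases of a transcript well enough to measure the use of a start was not tested. The TATAA match begins 31 bases before the outer start of *Ppy* and 27 bases before that of *Pyy*. TATAA is found on the strand of the gene within the 60 bases before the start in 3 of the 11 promoter entries of these genes (27.3%), 1 each of *Gcg*, *Ppy* and *Pyy*, compared with 5.57% of all 32851 promoters. A second entry of *Pyy* does not hold it. For *Sst*, *Ghrl*, *Irx2* and *Hhex* these letters are not in that window.

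*Ppy* and *Pyy* also have alternative 5' splice sites at the last exon junction, where both forms were used in both strains. The joined exons are shown with the stretch between the splice sites in capitals and with the shorter form beside it (transcript sequences of GENCODE M21).
*Pyy* with the stretch: cctccccttcagGTCTCGgccagaaggttt
*Pyy* without it: cctccccttcaggccagaaggttt
*Ppy* with the stretch: cctggagctgaagGCAGggagctctgccca
*Ppy* without it: cctggagctgaagggagctctgccca

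The 6 bases of *Pyy* (chr11:102106967-102106972) are annotated as coding and keep the reading frame. Their PSI was 0.208 in NZO islets and 0.2065 in B6-ob/ob islets, so that about 1 in 5 *Pyy* transcripts of either strain carried them. The 4 bases of *Ppy* (chr11:102100166-102100169) lie behind the coding sequence, in the 3' untranslated region. They were kept in most transcripts, with 0.654 in NZO islets and 0.650 in B6-ob/ob islets. The ∆PSI of 0.00135 for *Pyy* and of 0.00354 for *Ppy* were below the median absolute ∆PSI of 0.0262 for all 2326 alternative 5' splice sites.

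The only event of *Ghrl* is the cassette exon of 109 nt at chr6:113717053-113717161, which lies in the coding sequence of preproghrelin. As 109 is not divisible by 3, its skipping shifts the reading frame, and an annotated coding transcript lacks it. The exon is shown in full, as it had the largest ∆PSI of the 15 cassette exons of these genes.
*Ghrl* exon: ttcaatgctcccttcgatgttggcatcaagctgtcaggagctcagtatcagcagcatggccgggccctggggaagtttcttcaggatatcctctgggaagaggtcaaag

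Its PSI was 0.864 in NZO islets and 0.923 in B6-ob/ob islets, a ∆PSI of -0.06. This exceeds 95.6% of all cassette exons in absolute size but stays under the limit. Cassette exons of genes with a mean normalized count from 10 to 100, the range of *Ghrl*, differed more than others. Their median absolute ∆PSI was 0.0228 and 2.81% passed the limit, compared with 0.00581 and 1.48% over all cassette exons. With a mean normalized count of 22.2, *Ghrl* had the lowest level of the 8 genes, and in genes of a mean normalized count from 10 to 100 the median PSI of cassette exons was 0.903 in NZO islets and 0.912 in B6-ob/ob islets. The value of *Ghrl* was below this median in NZO islets, where it was also below the lower quartile of 0.885, and above the median in B6-ob/ob islets.

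The cassette exons of the regulators had a PSI of 0.92 to 0.98. In *Irx1*, the coding exon of 73 nt had 0.981 in NZO islets and 0.961 in B6-ob/ob islets. The exons of *Irx2* had 0.973 and 0.964 (406 nt), 0.977 and 0.968 (714 nt), and 0.972 and 0.962 (76 nt). In *Hhex*, the exon of 179 nt had 0.944 in NZO islets and 0.952 in B6-ob/ob islets, and that of 51 nt had 0.922 and 0.939. The PSI was higher in NZO in all 4 exons of *Irx1* and *Irx2* and lower in both exons of *Hhex*, by 0.02 at most.

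Over all genes, the median PSI of cassette exons rose with the level of the gene. Over all 45091 cassette exons of genes with a mean normalized count from 100 to 1000, the range that holds the 3 regulators, the median PSI was 0.965 in NZO islets and 0.975 in B6-ob/ob islets. For genes with 1000 to 10000 it was 0.991 and 0.994, and for those with 10000 to 100000, the range of *Sst*, *Pyy* and *Ppy*, it was 0.99909 and 0.99931. The part of the number of reads in the distance of a PSI from 1 was not tested. In *Pyy* and *Ppy*, 1 minus PSI was below the median of their range in both strains.

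**Figure D3:**
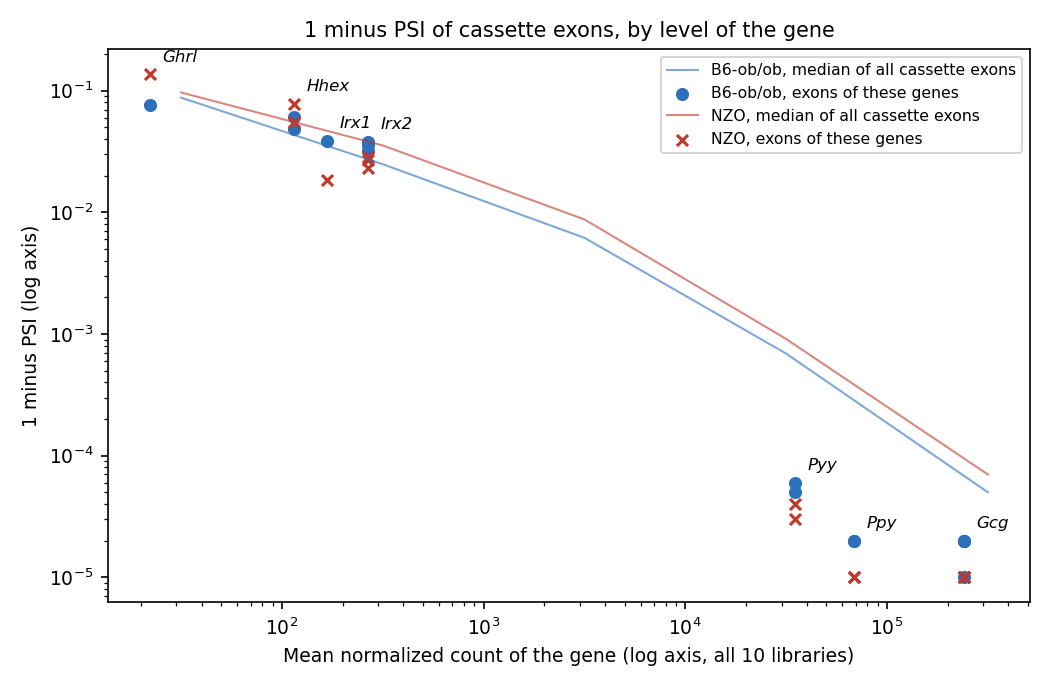
1 minus PSI (y axis, log scale) against the authors' mean normalized count of the gene (x axis, log scale) for the 15 cassette exons of *Gcg*, *Ppy*, *Pyy*, *Ghrl*, *Irx1*, *Irx2* and *Hhex* in NZO (red crosses) and B6-ob/ob islets (blue dots), with lines for the median of all cassette exons of each strain per range of the count, drawn at the middle of the range. The exons of *Ghrl*, *Hhex*, *Irx1* and *Irx2* lie between 0.0186 and 0.136, and those of *Pyy*, *Ppy* and *Gcg* at 6e-05 or less, below the lines.

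*Irx1* is also listed with a retained intron of 227 nt, the last one of the gene, which had a PSI of 0.0861 in NZO islets and 0.0907 in B6-ob/ob islets. An alternative first exon of 116 nt of *Hhex*, which is noncoding, had 0.112 and 0.0777. It belongs to a transcript whose coding sequence begins further downstream and therefore lacks the beginning of the long form. The ∆PSI of 0.03 is larger than that of 70.8% of all alternative first exons.

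The ends of transcripts showed the largest ∆PSI of these genes. At *Hhex*, the inner end at position 37440672 of chromosome 19 had a PSI of 0.600 in NZO islets and 0.881 in B6-ob/ob islets. The outer end at position 37440731 had 0.400 and 0.119. The ends are 59 bases apart in the 3' untranslated region, both behind the same stop codon. The ∆PSI of 0.28 is larger than that of 92.5% of all tandem polyadenylation sites. Such sites passed the limit more often than events of any other type, with 29.4%. The share was 32.5% among genes with a mean normalized count from 100 to 1000, to which *Hhex* belongs. It was 39.9% at counts from 10 to 100 and 18.1% at counts from 10000 to 100000. The part of the number of reads in these shares was not tested.

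The other genes with 2 annotated ends stayed under the limit. At *Irx2*, the inner end had a PSI of 0.354 in NZO islets and 0.266 in B6-ob/ob islets, and the outer one, 585 bases further, 0.646 and 0.735. At *Pyy*, the inner end had 0.292 and 0.204, and the outer one, 4 bases further, 0.708 and 0.796. Whether reads can tell apart ends of *Pyy* that lie so close was not tested. The inner end of *Irx1*, which lies 739 bases before the outer one, had a low PSI, with 0.0247 in NZO islets and 0.0602 in B6-ob/ob islets. Its stretch is only 14 nt long and directly follows the last intron, and whether transcripts truly end there was not tested. The inner end thus had the higher PSI in NZO islets in *Irx2* and *Pyy* and the lower one in *Hhex* and *Irx1*. A tandem pair gives a single difference, as the PSI of both ends add up to 1 within 0.00106 in each of these genes.

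The last 30 bases of both transcripts are shown for *Hhex*, *Irx2* and *Pyy*, since these ends carry the differences above. Capitals mark a match to the polyadenylation signal AATAAA on the strand of the gene.
*Hhex* inner end, chr19:37440643-37440672, plus strand: aactttcatatacattcatcatcagatgaa
*Hhex* outer end, chr19:37440702-37440731, plus strand: taaaatacctaaacatgacacctaaagagc
*Irx2* inner end, chr13:72633584-72633613, plus strand: aatttatttgtaaaaaaaaatgtacacggt
*Irx2* outer end, chr13:72634169-72634198, plus strand: aaaacaaAATAAAaggatatgccacctctc
*Pyy* inner end, chr11:102106680-102106709, minus strand: ctgtccctaAATAAAaagcaaatttcgcac
*Pyy* outer end, chr11:102106676-102106705, minus strand: ccctaAATAAAaagcaaatttcgcacaaaa

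AATAAA is found in the last 50 bases at the outer end of *Irx2* and at both ends of *Pyy*, which share the same copy. It is not in this window at either end of *Hhex* or *Irx1* or at the inner end of *Irx2*. Of all 58787 protein-coding transcripts of the annotation, 40.6% hold it there. All sequences shown in this report are of the reference build, and whether NZO mice differ from it at these bases was not analysed.

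**Figure D4:**
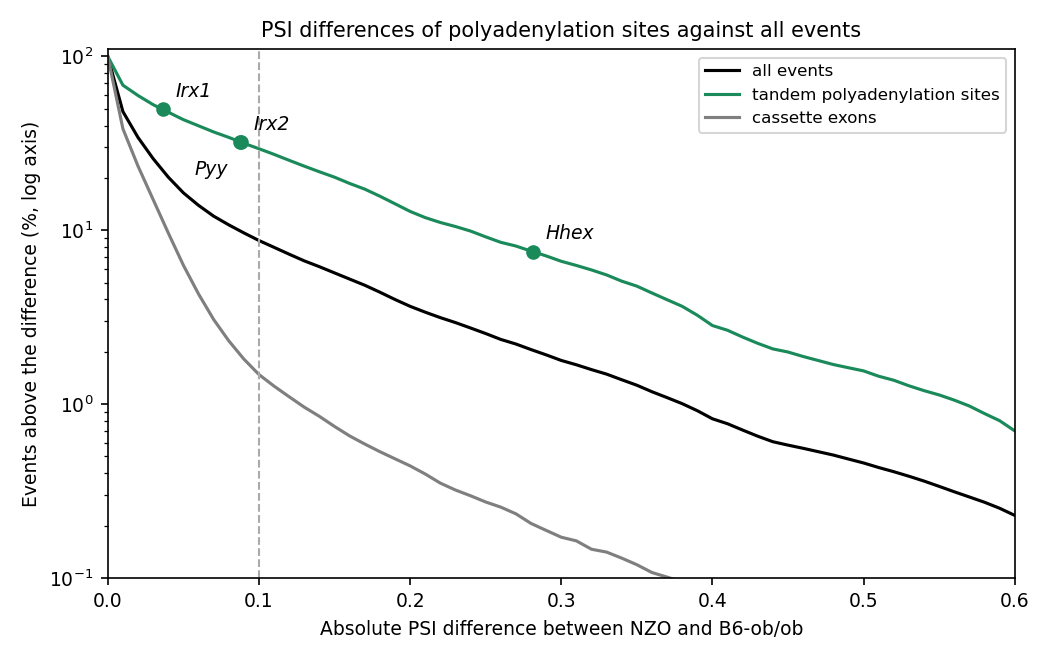
Share of events (y axis, percent, log scale) whose absolute ∆PSI exceeds the value on the x axis, for all events (black), tandem polyadenylation sites (green) and cassette exons (grey), with the limit of 0.1 as a dashed line. Green points place the tandem ends of *Irx1*, *Irx2*, *Pyy* and *Hhex* on the green curve, where those of *Irx2* and *Pyy* coincide near 0.09, and only *Hhex*, at 0.28, is to the right of the limit.

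The genes that act with these hormones differed widely in level. Of 12 genes of prohormone processing and of the secretory granule, all had a mean normalized count of at least 10, with a median of 34871 per kilobase, compared with 45.3 over all ranked genes. *Chga*, the gene of chromogranin A, had 306062 per kilobase, the secretogranin gene *Scg2* 158250 and *Cpe*, the gene of carboxypeptidase E, 89135. The prohormone convertase that releases glucagon in α-cells is encoded by *Pcsk2*, with 36116 per kilobase, and the one that releases GLP-1 from the same precursor by *Pcsk1*, with 6369, both named after their values were seen. As the values are of whole islets, the part of each endocrine cell type in them, β-cells included, cannot be told. Of the 134 splicing events of these 12 genes, 2 passed the limit (1.49%), compared with 8.73% of all events. Both are at the transcription start of *Chga*, where they describe the same choice.

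Of 14 receptor genes of the hormones, 7 had a mean normalized count of at least 10 and 5 one under 1. The highest was *Sstr3*, a somatostatin receptor gene, with 2805 per kilobase, followed by *Glp1r* for GLP-1 with 632 and *Gcgr* for glucagon with 620. The receptor genes *Npy2r*, *Npy5r* and *Npy6r* for peptides of the neuropeptide Y family are listed at 0, and *Npy4r*, whose product binds pancreatic polypeptide, had a mean normalized count of 0.532 and the somatostatin receptor gene *Sstr4* 0.470. Of 42 events, 3 passed the limit (7.14%), all of them introns of *Gcgr*, which is near the 8.73% of all events.

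Other genes of α-cells were partly as abundant as the hormones. The transthyretin gene *Ttr* had 83885 per kilobase, *Gc*, which encodes the vitamin D binding protein, 12477, and the transcription factor gene *Etv1* 611, with a median of 275 over the 8 genes of the list. Of the δ-cell genes, *Rbp4*, the gene of the retinol binding protein, had 1029 per kilobase, the fatty acid receptor gene *Ffar4* 57.0 and the phosphatase gene *Ptprz1* 14.0. Of the list for PP- and ε-cells, *Acsl1* had 80.4, *Cartpt* 31.5 and *Aqp3* 8.98. Among the 14 islet transcription factors, the β-cell factor genes *Mafa* with 7179 and *Nkx6-1* with 4522 and the endocrine factor gene *Insm1* with 2424 were the highest, and *Pax4* is listed at 0. Of the Iroquois family of *Irx1* and *Irx2*, *Irx3* had 11.2 per kilobase, *Irx4* and *Irx5* had a mean normalized count under 1 and *Irx6* is listed at 0. Of 11 related peptide hormone genes, which include the insulin genes and *Iapp*, 7 had a count of at least 10, *Nts* for neurotensin had 0.917 and *Gip* is listed at 0. Past the limit of 0.1 were 8 of 82 events of the α-cell genes (9.76%) and 2 of 25 of the genes of PP- and ε-cells (8.0%). Both shares are near the 8.73% of all events, and the latter 2 events are the same choice between ends of *Acsl1*. Of the δ-cell genes 0 of 26 events passed, of the other Iroquois genes 0 of 3 and of the related hormones 0 of 30.

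**Figure D5:**
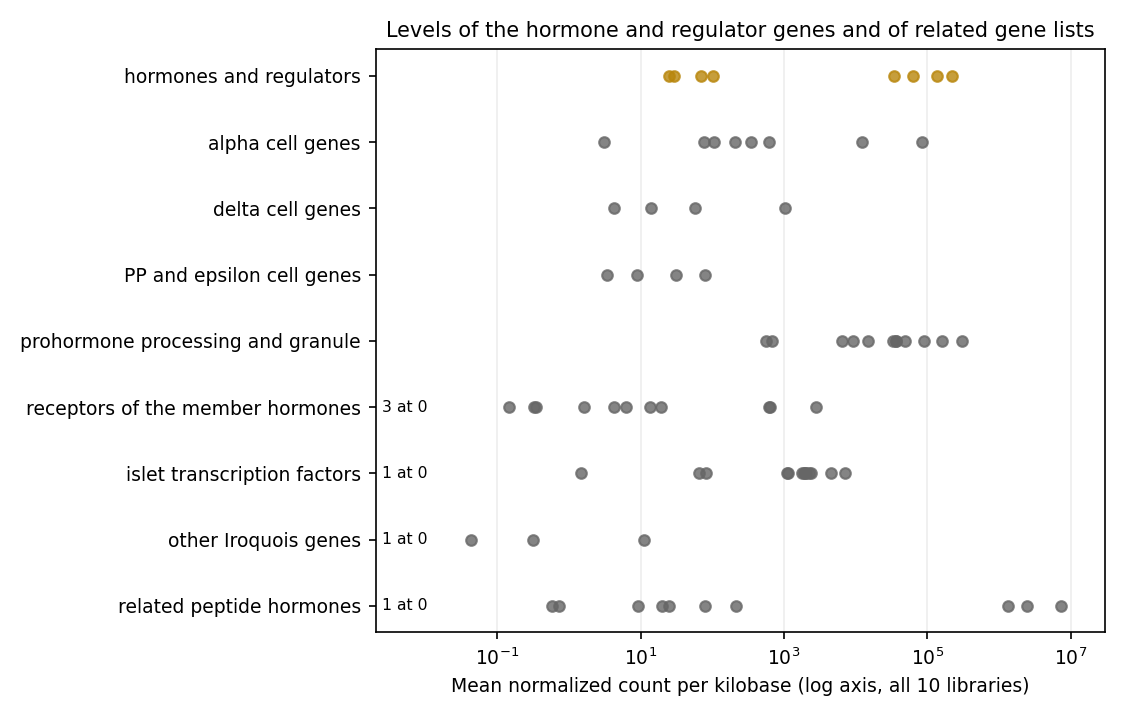
Authors' mean normalized count per kilobase over all 10 libraries (x axis, log scale) of the 8 hormone and regulator genes (gold) and of the genes of 8 related lists (grey), 1 point per gene, with the number of genes listed at 0 in words. *Ghrl* and the regulators lie from 24.9 to 102 per kilobase, apart from the other hormone genes, which lie from 33855 to 220775. The granule genes lie between 560 and 306062.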

How the data were processed

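Islet RNAseq of 5 NZO and 5 B6-ob/ob mice was analysed from tables of the whole series. Per the sources, the authors quantified transcripts with Salmon, normalized with DESeq2 and obtained splicing events from Whippet (build mm10), with versions not given in the sources used here. Of the deposited gene values, a mean signal was used, the count divided by size factors and averaged over all 10 libraries. Of the deposited splicing values, PSI was used, a fraction that the authors gave per strain with replicates pooled. The columns of fold changes, adjusted p-values, ∆PSI and probabilities, and the sheets of significant genes and events, hold the authors' own comparison and were not used. Depth per library is unknown.

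∆PSI was computed here from the strain PSI, with the study's limit of 0.1 but without its condition on probability, and over all 8 event types. Lengths came from GENCODE M21 (GRCm38, the build of mm10), which gave 99.1% of the genes above 0 a length by symbol. Promoters came from RefSeq (GRCm38.p6), with entries for 7 of the 8 genes. Members and lists (8 gene lists, 11 marker lists) were chosen with earlier results of these data known. All members were named, and of each list the 3 highest genes per kilobase, those with a count under 1 and the 3 events of largest absolute ∆PSI, with other genes marked as named after their values were seen. A result that this rule would name is not reported here. Alternatives were a limit of 0.2, a mean PSI of 0.1 to 0.9, 4 event types, distinct coordinates, other lengths and a count minimum of 10. Counting of events was tested on simulated data. Python 3.11.15, numpy 2.4.6, pandas 2.3.3 and matplotlib 3.10.9 were used.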

Additional observations from a re-analysis of the deposited data

How the results depend on the processing

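The 2 events past the limit, both at the ends of *Hhex*, were also counted with a limit of 0.2 (3.65% of all events), with 1 row per distinct coordinates (8.75%) and among the 9 events with a mean PSI of 0.1 to 0.9 (38.8%). With cassette exons, retained introns and alternative splice sites alone, 0 of 18 events passed (2.54% of all), because tandem polyadenylation sites are then left out. In the top 1% of genes were 4 of the 8 genes with the length of the longest transcript, of all exons or of the longest coding transcript, the last chosen after seeing the data, without division by length and among genes with a count of at least 10, where the percentiles of the other 4 genes moved to between 18.8 and 38.0. A filter on splicing entropy was not run, as no such column was used. No paired analysis was possible because the strains share no replicate numbers and the columns carry none, and for the latter reason leaving out a mouse was not possible. With 1 pooled PSI per strain, the spread between mice is unknown for every difference.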

Other observations

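Some genes of the related lists had larger ∆PSI than the hormone genes, given here as values from 1 pooled PSI per strain. At *Chga*, the gene of chromogranin A, the outer transcription start had a PSI of 0.823 in NZO islets and 0.386 in B6-ob/ob islets, and the starts are 17 bases apart. The transcription factor gene *Pax6*, which acts in all islet endocrine cells, had a start with 0.601 and 0.960. At *Neurog3*, the gene that sets off endocrine development, the outer polyadenylation site had 0.742 and 0.377. Of the α-cell genes, a start of *Smarca1* had 0.725 and 0.477 and a polyadenylation site of *Slc38a5* 0.993 and 0.793. Of the genes of PP- and ε-cells, the outer polyadenylation site of *Acsl1* had 0.958 and 0.853. The 3 introns of the glucagon receptor gene *Gcgr* past the limit had 0.469 and 0.307, 0.302 and 0.171, and 0.213 and 0.107, each higher in NZO islets. Over the 14 islet transcription factors, 14 of 79 events in 5 genes passed the limit (17.7%), compared with 8.73% of all events. A tandem choice enters such a count at both of its sites, as at *Neurog3*. The shares are also not matched for event type. Over all genes, 29.4% of tandem polyadenylation sites and 23.3% of tandem transcription starts passed, compared with 1.48% of cassette exons.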
